A study of Mus musculus with 36 samples.

Results

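Nbr1, Tmem106a, Brca1 and Rundc1 lie on 1 stretch of mouse chromosome 11 and were followed library by library in hypothalamus. The 4 genes were picked by symbol from the 24265 genes of the deposited count table, because Nbr1 and Tmem106a had been seen to stand at separate levels among the 12 libraries of CAST/EiJ, a wild-derived inbred strain. Those levels, and the difference of CAST/EiJ from the other strains, are therefore given as descriptions without a test. The 36 bulk libraries came from CAST/EiJ, from the reference strain C57BL/6J and from NZO/HlLtJ, an inbred model of obesity and diabetes, with the genotype given as WT throughout. Females and males of each strain ate a control diet with 10% fat or a high-fat, high-sugar diet (HFHS) with 44% fat, both with fiber, from 6 weeks of age until collection at 15 weeks. Each of the 12 groups of strain, diet and sex holds n = 3 libraries, numbered 1 to 3 only to name them, and the labels give no other mark of separate animals, so p-values measure the spread between these libraries.

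Nbr1 encodes a receptor of selective autophagy, which binds ubiquitin on cargo and LC3 or GABARAP proteins on the forming autophagosome. Brca1 encodes a ubiquitin ligase of DNA double-strand break repair and is expressed mainly in dividing cells. Tmem106a encodes a membrane protein of the family that includes the lysosomal protein Tmem106b, and is known from macrophages, and Rundc1 encodes a RUN domain protein. Nbr1 and Brca1 start next to each other on opposite strands, and the short interval between them is known as a promoter that serves both genes.

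In GRCm38, Rundc1 (ENSMUSG00000035007) spans chr11:101425085-101435673 on the plus strand and has 5 exons. Brca1 (ENSMUSG00000017146) spans chr11:101488764-101551955 on the minus strand, with up to 23 exons in a transcript. Nbr1 (ENSMUSG00000017119) follows at chr11:101552149-101581951 on the plus strand, with up to 24 exons. Tmem106a (ENSMUSG00000034947) lies at chr11:101582242-101591788 on the plus strand, with up to 9 exons. The deposited gene spans leave 193 bases between Brca1 and Nbr1 and 290 bases between Nbr1 and Tmem106a, so these 3 genes are packed together. Rundc1 stands apart from them, 53090 bases before the end of Brca1. Rnd2, which encodes a small GTPase, ends 16910 bases before Brca1, and Rdm1, which encodes a RAD52 motif protein, starts 35406 bases after Tmem106a. The 3 genes of GENCODE M21 between Tmem106a and Rdm1 (Gm11634, Gm26316 and Gm11635) were not analysed here.

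The sequences between the starts of Brca1 and Nbr1 and in front of Tmem106a are shown because these genes lie close together. Whether these sequences bear on the levels below was not tested. All 4 genes were found in the RefSeq promoter table of GRCm38.p6. The RefSeq starts of Brca1 and Nbr1 leave 151 bases, chr11:101551956-101552106, here on the plus strand, with capitals for CCAAT and TGACG read on either strand. Nbr1 begins at its right end and Brca1, on the other strand, at its left end. The 250 bases before Tmem106a, chr11:101581992-101582241 on the plus strand, carry capitals for GGGCGG and CCGGAAG on either strand.
Brca1 to Nbr1: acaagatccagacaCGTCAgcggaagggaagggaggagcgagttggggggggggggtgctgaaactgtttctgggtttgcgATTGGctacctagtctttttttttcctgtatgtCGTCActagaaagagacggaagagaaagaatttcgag
upstream of Tmem106a: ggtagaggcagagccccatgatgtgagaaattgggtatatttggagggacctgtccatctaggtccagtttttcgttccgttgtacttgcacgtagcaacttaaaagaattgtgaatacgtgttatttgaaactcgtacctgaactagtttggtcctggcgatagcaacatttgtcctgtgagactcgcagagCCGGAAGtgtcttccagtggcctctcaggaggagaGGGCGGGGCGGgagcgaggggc
The interval shared by Brca1 and Nbr1 holds 1 match to CCAAT, here as its reverse complement, and 2 to TGACG, also reversed. Among windows of 151 bases taken likewise from the 32851 promoter entries, 24.58% hold CCAAT and 13.39% hold TGACG. The window before Tmem106a holds 2 overlapping matches to GGGCGG and 1 to CCGGAAG, found in 32.74% and 6.907% of windows of 250 bases. It also holds 1 CCAAT match, not capitalized, which 33.85% of such windows have. These are matches of letters in the reference strain and were not compared between strains.

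Levels of the 4 genes were of very different size. Per kb of exon sequence, the median in C57BL/6J was 24.97 CPM (counts scaled to a library total of 1000000) for Nbr1, 12.5 for Rundc1, 0.763 for Tmem106a and 0.228 for Brca1. In the same unit the CAST/EiJ medians were 29.7, 15.8, 1.11 and 0.156, in the same order of genes. Brca1 in CAST/EiJ rested on 23 to 105 reads a library and Tmem106a on 87 to 355, so their values carry more counting error than those of Nbr1, at 5597 to 18552 reads.

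By eye, Nbr1 lay at 3 levels among the 12 CAST/EiJ libraries, and at a single one in the other strains. The upper levels hold 2 libraries each, and neither gap rule described below picked Nbr1 with TMM. In CAST/EiJ females on control diet Nbr1 was at 221, 202 and 195 CPM (libraries 1 to 3), and on HFHS at 199, 194 and 206 CPM. In males on control diet Nbr1 was at 194, 199 and 296 CPM, and on HFHS at 419, 294 and 408 CPM. The 6 females and control males 1 and 2 thus lay together, control male 3 and HFHS male 2 lay above them and close to each other, and HFHS males 1 and 3 were highest. Exact Poisson intervals (95%, counting error only) were 290 to 301 CPM for control male 3, 288 to 300 CPM for HFHS male 2, 413 to 425 CPM for HFHS male 1 and 401 to 416 CPM for HFHS male 3. In C57BL/6J the 12 libraries ran from 167 to 180 CPM with a median of 172, and in NZO/HlLtJ from 167 to 183 CPM with a median of 176. No CAST/EiJ library overlapped either strain. The share of all genes without overlap was not counted, and 57.5% of genes were called for CAST/EiJ against the other strains. Relative to the C57BL/6J median, Nbr1 stood at 1.13 to 1.29 times in 8 CAST/EiJ libraries, at 1.71 and 1.72 times in HFHS male 2 and control male 3, and at 2.38 and 2.44 times in HFHS males 3 and 1. Relative to the median of CAST/EiJ females, those same 4 libraries were at 1.47, 1.48, 2.04 and 2.09 times.

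**Figure D1:**
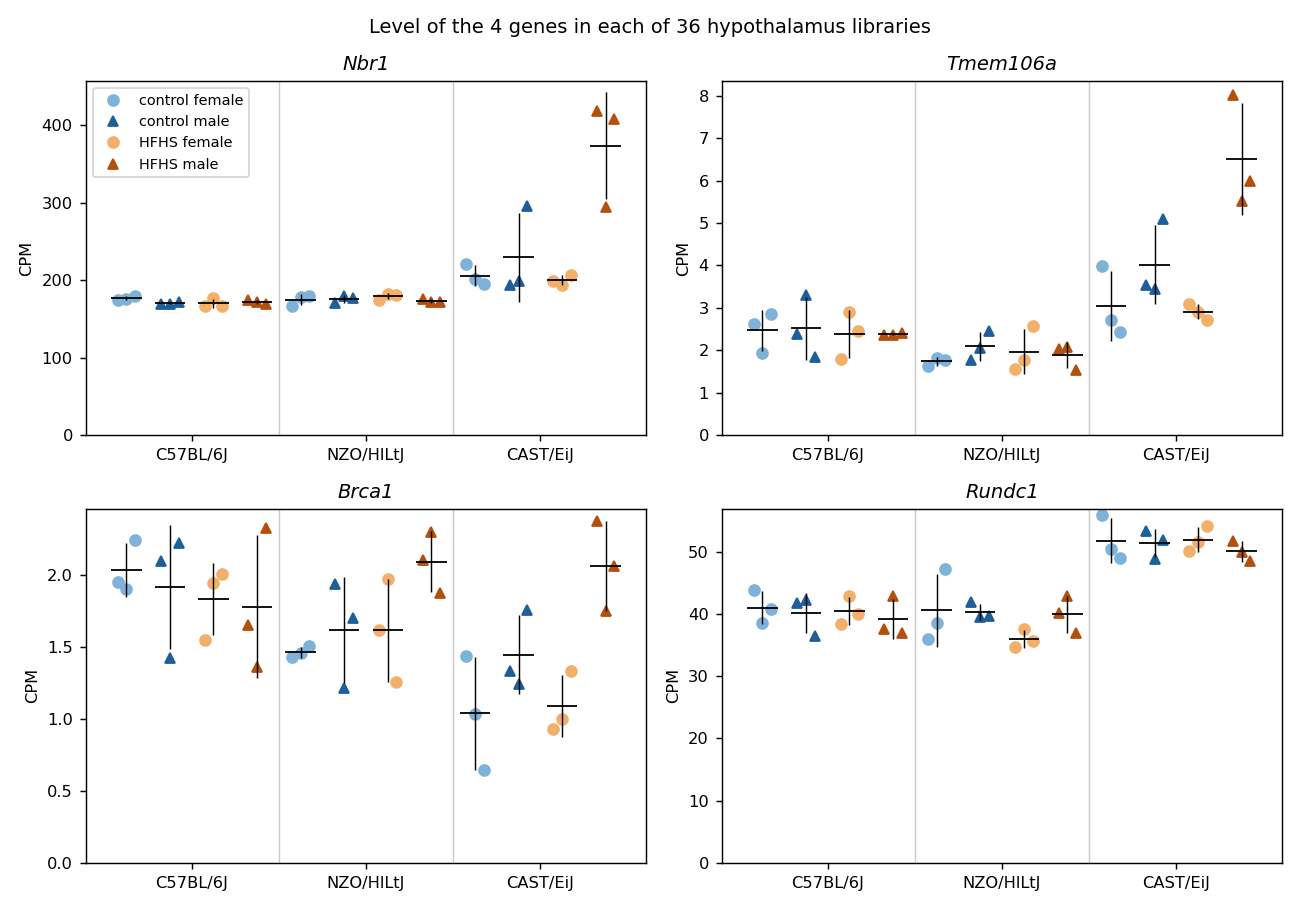
Level in CPM of Nbr1, Tmem106a, Brca1 and Rundc1 in each library, by strain, diet and sex, with points for single libraries, horizontal bars for group means and vertical bars for ± SD (n = 3). Nbr1 in the CAST/EiJ HFHS males lies between 294 and 419 CPM and in 1 control male at 296 CPM, above all other libraries, while Rundc1 is higher throughout CAST/EiJ without a spread of this kind.

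The steps of Nbr1 were described by the gaps between neighbouring libraries on the log2 CPM scale. Sorted by level, the CAST/EiJ libraries left a gap of 0.40 between the lower 8 and the next 2, and a gap of 0.46 between those and the upper 2. Both gaps together made up 75.7% of the range of 1.13, and 0.294% of the 20053 genes tested had a larger share in CAST/EiJ. Nbr1 was picked for its levels in these libraries, and the measure was written after they were seen, so this share is no separate support. In CAST/EiJ, 35.2% of genes had a larger range than Nbr1. For Tmem106a and Brca1, 82.7% and 58.6% of genes had a larger share of 2 gaps. In C57BL/6J and NZO/HlLtJ the whole range of Nbr1 was 0.12 and 0.13. By a rule that asks for 1 gap of at least 0.4 and at least 50% of the range, with at least 2 libraries on either side, Nbr1 was not stepped in CAST/EiJ, since the larger gap alone was 40.5% of the range. That rule picked 0.838% of genes in CAST/EiJ, 0.628% in C57BL/6J and 0.529% in NZO/HlLtJ. A rule for 2 gaps of at least 0.4, together at least 50% of the range and with at least 2 libraries in each part, written after the data were seen, picked 1.6%, 1.45% and 1.14% of genes in the same strains. It missed Nbr1 by its lower gap of 0.398, and met it with median-ratio size factors in place of TMM, where the gaps were 0.415 and 0.460. Neither rule picked Tmem106a, Brca1 or Rundc1 in CAST/EiJ.

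Tmem106a followed Nbr1 through the CAST/EiJ libraries. In females Tmem106a was at 3.99, 2.70 and 2.43 CPM on control diet and at 3.08, 2.91 and 2.73 CPM on HFHS. In males it was at 3.53, 3.44 and 5.09 CPM on control diet and at 8.02, 5.52 and 6.00 CPM on HFHS. Control male 3 and the 3 HFHS males were again the highest 4, and control female 1, the highest of the remaining libraries for Nbr1, was so for Tmem106a too. Of the gaps with at least 2 libraries on either side, the largest, 0.35 on the log2 scale, lay below these 4, and HFHS male 1 stood alone above the other 3. In C57BL/6J the gene ran from 1.79 to 3.31 CPM (median 2.39) and in NZO/HlLtJ from 1.53 to 2.57 CPM (median 1.80). Of the CAST/EiJ libraries, 5 of the 6 females lay inside the C57BL/6J range and 1, control female 3, also inside that of NZO/HlLtJ, while the males and control female 1 lay above both. Against the C57BL/6J median, control male 3 and HFHS males 1, 2 and 3 stood at 2.13, 3.35, 2.31 and 2.50 times. Tmem106a lies 290 bases after Nbr1 on the same strand and had few counts beside it. Whether reads of Nbr1 transcripts enter the Tmem106a counts was not tested.

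Brca1, on the other side of the Nbr1 start, had the same 4 libraries on top. In CAST/EiJ females Brca1 was at 1.43, 1.03 and 0.643 CPM on control diet and at 0.931, 0.998 and 1.33 CPM on HFHS. In males it was at 1.33, 1.24 and 1.75 CPM on control diet and at 2.37, 1.74 and 2.06 CPM on HFHS. Here the order fell into the range of the other strains, which was 1.36 to 2.32 CPM in C57BL/6J and 1.21 to 2.30 CPM in NZO/HlLtJ. In 7 CAST/EiJ libraries Brca1 was below the lowest C57BL/6J library, and control female 1, control male 3 and HFHS males 2 and 3 lay inside that range. HFHS male 1 was the single CAST/EiJ library above it. The use of strand in counting is not given, and Brca1 had few counts against its neighbour, so whether reads of Nbr1 transcripts near the shared start enter the Brca1 counts was not tested. Exact Poisson intervals, which cover counting error only, were 1.94 to 2.87 CPM in HFHS male 1 and 0.407 to 0.964 CPM in control female 3, the lowest library.

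Rundc1 differed between the strains but not in steps. In CAST/EiJ females Rundc1 was at 55.8, 50.5 and 48.98 CPM on control diet and at 50.1, 51.6 and 54.1 CPM on HFHS. In males it was at 53.3, 48.9 and 51.9 CPM on control diet and at 51.7, 49.9 and 48.5 CPM on HFHS. The libraries that stood high in Nbr1 were spread over this range, and its width was 0.21 on the log2 scale. C57BL/6J ran from 36.5 to 43.8 CPM and NZO/HlLtJ from 34.7 to 47.2 CPM, both below every CAST/EiJ library. Here too the share of all genes without overlap was not counted, beside 57.5% of genes called between CAST/EiJ and the other strains.

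Because ratios within a library do not depend on the scaling of libraries, the genes were also set against each other by counts. Per 100 counts of Nbr1, CAST/EiJ libraries held 1.24 to 1.91 counts of Tmem106a (median 1.63, coefficient of variation (CV) 14.5%), C57BL/6J 1.08 to 1.95 (CV 17.9%) and NZO/HlLtJ 0.890 to 1.42 (CV 16.2%). The CV of this ratio was lowest in CAST/EiJ of the 3 strains, while Tmem106a itself varied with a CV of 41.3% there, against 18.4% in C57BL/6J and 17.3% in NZO/HlLtJ. Tmem106a also had more counts in CAST/EiJ, 87 to 355 a library, against 50 to 127 in C57BL/6J and 41 to 97 in NZO/HlLtJ. The part of counting error in the order of these CVs was not tested. Counts of Brca1 per 100 of Nbr1 ran from 0.329 to 0.685 in CAST/EiJ (CV 17.7%), from 0.792 to 1.37 in C57BL/6J (CV 16.97%) and from 0.674 to 1.34 in NZO/HlLtJ (CV 21.1%). The medians were 0.580 in CAST/EiJ, 1.11 in C57BL/6J and 0.942 in NZO/HlLtJ. The ranges of CAST/EiJ and C57BL/6J do not overlap, while that of NZO/HlLtJ, from 0.674, reaches below the highest CAST/EiJ library at 0.685. The share of gene pairs without overlap was not counted, and Nbr1 had been picked for its levels in CAST/EiJ. The CV of Brca1 alone was 35.5% in CAST/EiJ and 17.2% in C57BL/6J. Counts of Nbr1 per 100 of Rundc1 showed the steps again. They were at 365 to 406 in 8 CAST/EiJ libraries, at 570 and 589 in control male 3 and HFHS male 2, and at 810 and 842 in HFHS males 1 and 3, against 400 to 470 in C57BL/6J and 380 to 508 in NZO/HlLtJ.

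**Figure D2:**
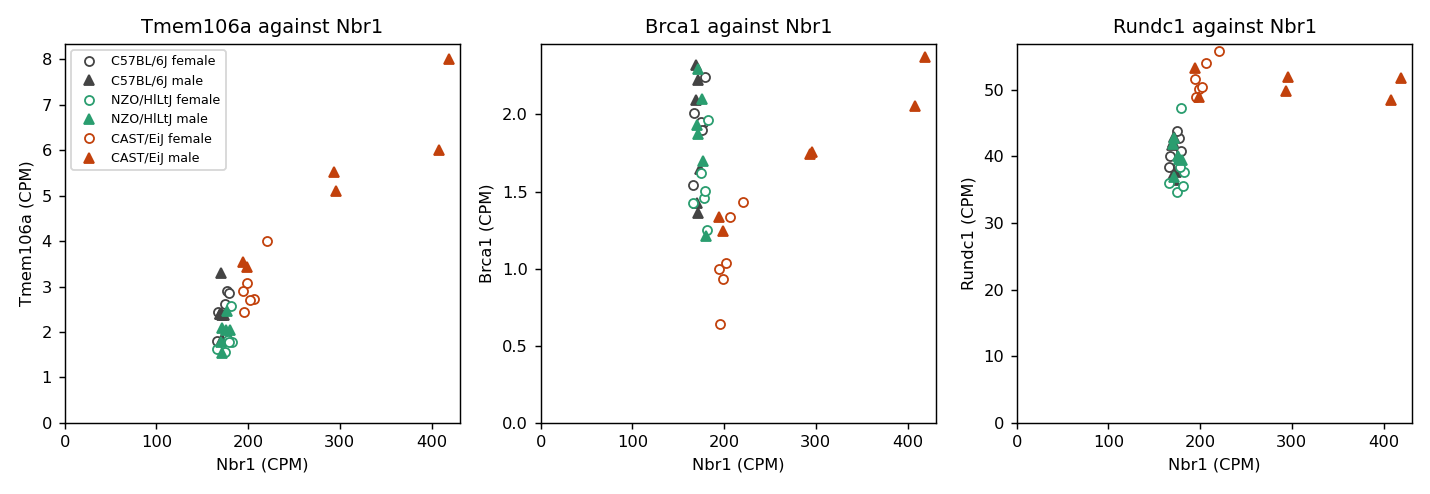
Level in CPM of Tmem106a, Brca1 and Rundc1 against Nbr1 in the 36 libraries, with colours for strain, open circles for females and filled triangles for males. The 4 CAST/EiJ libraries to the right, all males, lie high for Tmem106a and at the top of the CAST/EiJ libraries for Brca1, and at 48.5 to 51.9 CPM for Rundc1.

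Among all genes, Tmem106a was the closest to Nbr1 over the 12 CAST/EiJ libraries. Both genes had been picked for their levels in these libraries, so their places here are a description and no separate support. The libraries fall in clusters, so the likeness is given as a place in the order of Pearson correlation and as the root mean square difference (RMSD) of log2 CPM after centring, without a p. Of 20052 other genes, Tmem106a came 1st by correlation and by RMSD, at 0.201, where a gene with no variation would give 0.406. Brca1 came 3rd by correlation and 6th by RMSD (0.259). Per unit of log2 change in Nbr1, Tmem106a changed by 1.18 and Brca1 by 1.01. Rundc1 came in place 13444, with a slope of -0.02. The other genes of the top 10 by correlation were 9330158H04Rik (2nd, RMSD 0.205), Pcdhb21, Fam228a, Arntl (a core gene of the circadian clock), Cdk3-ps, Amh, Gm42922 and Teddm1b. Cdk3-ps is the only one of these on chromosome 11, at chr11:116216003-116220287, far from Nbr1. Ranked against Tmem106a, Nbr1 came 1st and Brca1 2nd (RMSD 0.206, with 0.513 for a gene without variation), followed by Arntl, Gm17249, Gm17315, Gm1976, 9330158H04Rik, Fam228a, 5730455P16Rik and Gm13988. On the deposited variance-stabilized values Tmem106a and Brca1 kept places 1 and 3 for Nbr1. Of the 20052 genes, 45 (0.224%) had the same 4 CAST/EiJ libraries on top as Nbr1, and 2 of these 45 were Tmem106a and Brca1.

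The genes on either side were set against Nbr1 in the same libraries. The deposited table has 47 genes between 500 kb before Rundc1 and 500 kb after Tmem106a, the 4 described here and 43 others, of which 41 were tested. None of the 41 had the same 4 highest libraries as Nbr1, where 0.224% of all genes had them, so none among 41 is near that share. Rnd2, the neighbour on the Brca1 side, was at 104 to 146 CPM in CAST/EiJ, with control females 1 and 3 highest at 146 and 144 CPM, and came in place 7207 for likeness to Nbr1. Rdm1, the neighbour on the Tmem106a side, was at 4.69 to 8.63 CPM with control female 1 highest, and came in place 2063. In Rdm1, control male 3 and HFHS males 1, 2 and 3 were at 6.21, 6.59, 6.00 and 5.96 CPM, between 0.04 and 0.19 above the CAST/EiJ median on the log2 scale. In the same libraries Nbr1 and Tmem106a lay between 0.52 and 1.21 above theirs.

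**Figure D3:**
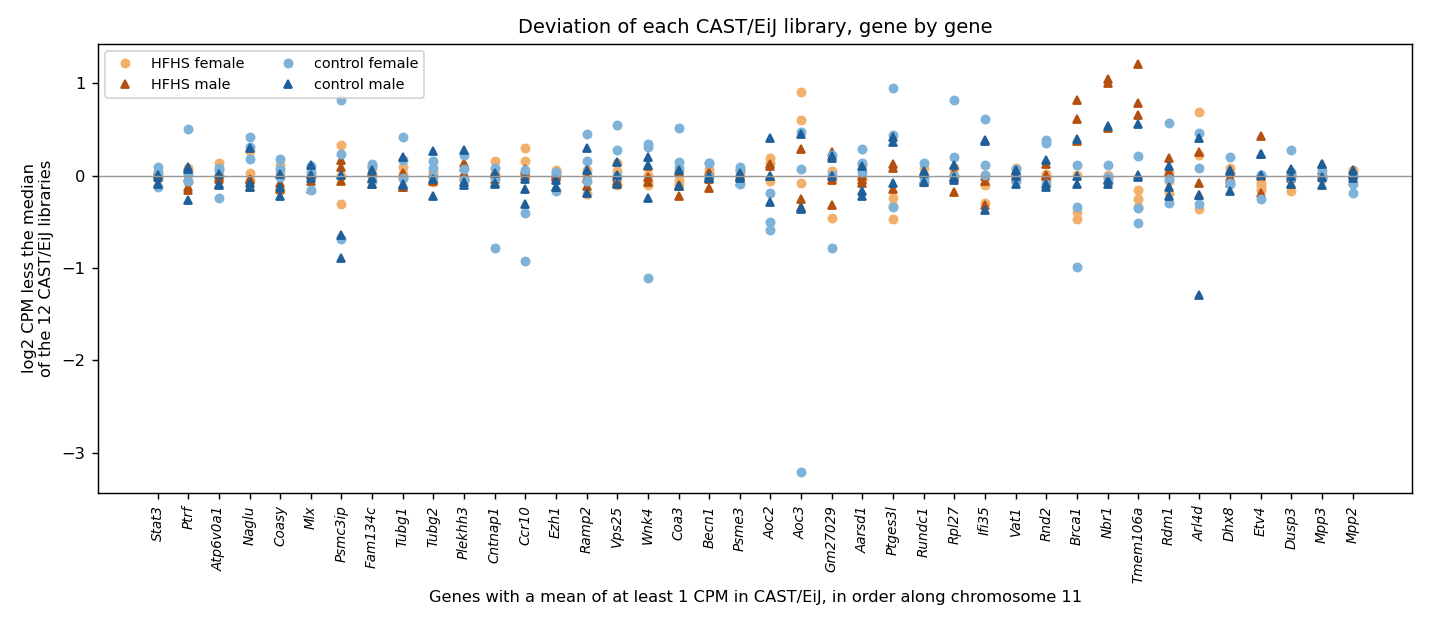
Deviation of each CAST/EiJ library from the median of the 12, in log2 CPM, for genes along chromosome 11 with a mean of at least 1 CPM in CAST/EiJ. Circles are females and triangles males, and in Brca1, Nbr1 and Tmem106a the HFHS males and 1 control male lie above the rest, and in the neighbours Rnd2 and Rdm1 the highest point is a control female.

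Sex was tested within each strain as female less male, averaged over the diets, with the edgeR quasi-likelihood test on all 36 libraries and Benjamini-Hochberg adjustment over all genes. In CAST/EiJ, Nbr1 was lower in females, at 203 ± 9.73 CPM against 302 ± 97.3 CPM in males (SD, n = 6 each), a log2 difference of -0.53 ± 0.08 (SE, adjusted p = 0.000179). Tmem106a was also lower in females, at 2.97 ± 0.545 against 5.27 ± 1.71 CPM, a log2 difference of -0.79 ± 0.16 (edgeR adjusted p = 0.0246). Brca1 averaged 1.06 ± 0.286 CPM over females and 1.75 ± 0.427 CPM over males, which did not pass (-0.71 ± 0.18, edgeR adjusted p = 0.0860), and Rundc1 was at 51.8 ± 2.61 and 50.7 ± 1.91 CPM (edgeR adjusted p = 0.762). So 2 of the 4 genes were called, where 0.185% of all genes tested were, and 0.0798% were called lower in females. Nbr1 and Tmem106a were picked on their levels in these same CAST/EiJ libraries. Their calls here, and those for diet and sex within CAST/EiJ below, are therefore not independent of the choice. They cannot be weighed against the share of all genes. The higher mean of males rests on 4 of the 6: control males 1 and 2 lay among the females in Nbr1, at 194 and 199 CPM. The CV of Nbr1 was 32.3% in CAST/EiJ males, 4.796% in CAST/EiJ females and between 1.046% and 3.28% in females or males of the other strains, while the test used 1 spread per gene over all groups. With the spread taken from the CAST/EiJ libraries alone, neither gene was called (edgeR adjusted p = 0.403 for Nbr1 and 0.340 for Tmem106a). The call of Nbr1 remained with any 1 of the 36 libraries left out. That of Tmem106a was lost without CAST/EiJ control female 3, control male 3, HFHS female 1, 2 or 3, or HFHS male 1 (edgeR adjusted p from 0.0583 to 0.109).

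No member differed between the sexes in the other strains, where 0.194% of genes were called in C57BL/6J and 0.0698% in NZO/HlLtJ. The log2 differences of Nbr1 there were 0.02 ± 0.08 and 0.03 ± 0.08, and those of Tmem106a 0.00 ± 0.17 and -0.10 ± 0.17. The sex difference of CAST/EiJ less that of another strain, added after the data were seen, was -0.55 ± 0.11 for Nbr1 against C57BL/6J (edgeR adjusted p = 0.133) and -0.56 ± 0.11 against NZO/HlLtJ (edgeR adjusted p = 0.141). Nbr1 was 2nd in the order of p in both, but 0 of 20053 genes were called, so a difference between strains in the sex effect was not shown.

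Diet, as HFHS less control averaged over the sexes, called none of the 4 genes in any strain. In CAST/EiJ, Nbr1 was at 287 ± 105 CPM on HFHS and 218 ± 39.4 CPM on control diet (SD, n = 6 each), a log2 difference of 0.33 ± 0.08 (edgeR adjusted p = 0.0696, beside 0.12% of genes called). Tmem106a was at 4.71 ± 2.15 and 3.53 ± 0.955 CPM, a difference of 0.32 ± 0.16 (edgeR adjusted p = 0.302), and Brca1 at 1.57 ± 0.583 and 1.24 ± 0.377 CPM (edgeR adjusted p = 0.411). The Nbr1 difference passed without control male 3, at 0.45 (edgeR adjusted p = 0.000104), without HFHS male 2, at 0.41 (0.00389), or without control female 2, at 0.33 (0.00728), and with DESeq2, at 0.33 (adjusted p = 0.00637). In C57BL/6J 0% of genes and in NZO/HlLtJ 0.145% were called for diet, and Nbr1 differed by -0.03 ± 0.08 and -0.01 ± 0.08.

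Among CAST/EiJ males Nbr1 was higher on HFHS, and among females no difference was detected. These splits were added after the data were seen. In males, Nbr1 was at 374 ± 69.3 CPM on HFHS and 230 ± 57.3 CPM on control diet (SD, n = 3 each), a log2 difference of 0.71 ± 0.11 (edgeR adjusted p = 0.00576). It was the only gene called of 20053, or 0.00499%, but the levels of single males overlapped, since control male 3 at 296 CPM lay above HFHS male 2 at 294 CPM. The call was lost without control male 1, control male 2, HFHS male 1 or HFHS male 3 (edgeR adjusted p from 0.146 to 0.220), and with the spread of CAST/EiJ alone (edgeR adjusted p = 0.9999). In males Tmem106a differed by 0.70 ± 0.22 (edgeR adjusted p = 1) and Brca1 by 0.51 ± 0.25 (edgeR adjusted p = 1). In females, Nbr1 was at 200 ± 6.11 CPM on HFHS and 206 ± 13.2 CPM on control diet, a difference of -0.04 ± 0.11 (edgeR adjusted p = 0.854, beside 4.41% of genes called). The diet difference of males less that of females was 0.75 ± 0.15 for Nbr1, first of all genes by p but not called (edgeR adjusted p = 0.208, 0% of genes called). It passed without control male 3, at 0.97 (edgeR adjusted p = 7.77e-05), without HFHS male 2, at 0.89 (0.00591), without control female 2, at 0.75 (0.00932), and with DESeq2, at 0.74 (adjusted p = 0.00938).

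On HFHS, CAST/EiJ females were below males in Nbr1 by -0.90 ± 0.11 (edgeR adjusted p = 6.04e-06) and in Tmem106a by -1.17 ± 0.22 (edgeR adjusted p = 0.0201), 2 of the 13 genes (0.0648%) called, where 0.0399% of all genes tested were called lower in females. Here no female overlapped a male, at 194 to 206 against 294 to 419 CPM for Nbr1 and 2.73 to 3.08 against 5.52 to 8.02 CPM for Tmem106a. The share of all genes without such overlap, which groups of 3 libraries can give readily, was not counted. Brca1 differed by -0.93 ± 0.25 without passing (edgeR adjusted p = 0.893). The Tmem106a call was lost without HFHS male 1 or any 1 HFHS female (edgeR adjusted p from 0.102 to 0.358), and neither call was made with the spread of CAST/EiJ alone (edgeR adjusted p = 0.159 for Nbr1 and 0.330 for Tmem106a). On control diet no member was called between the sexes, beside 4.55% of genes, and Nbr1 differed by -0.15 ± 0.11.

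**Figure D4:**
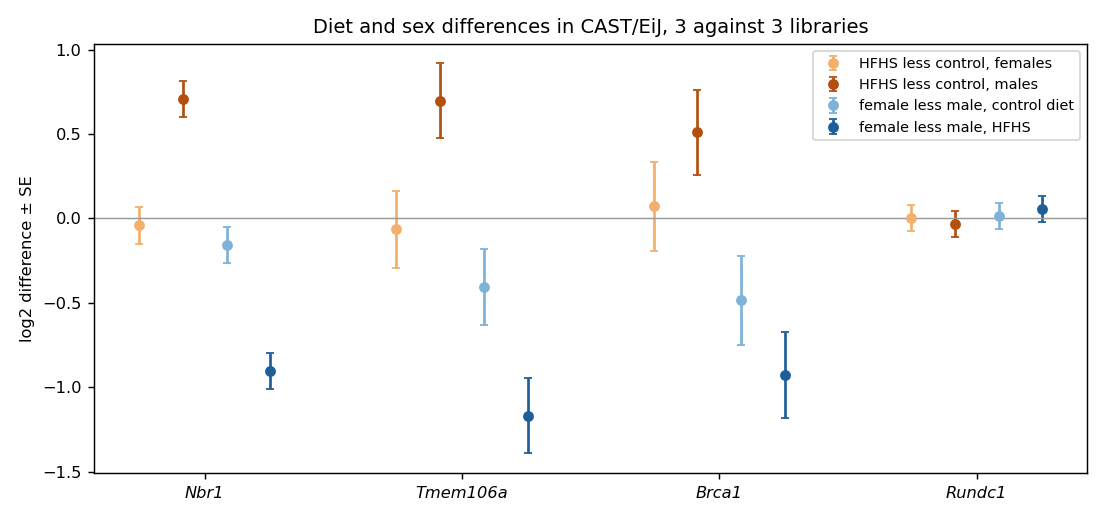
Log2 differences ± SE from the edgeR fit within CAST/EiJ, 3 against 3 libraries, for diet in each sex and for sex on each diet. Nbr1, Tmem106a and Brca1 lie at 0.51 to 0.71 for diet in males and at -1.17 to -0.90 for sex on HFHS, and Rundc1 lies between -0.03 and 0.05 throughout.

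The diet difference was also tested between strains. For Nbr1 it was larger in CAST/EiJ than in C57BL/6J by 0.36 ± 0.11 (edgeR adjusted p = 0.319, 0% of genes called) and than in NZO/HlLtJ by 0.34 ± 0.11 (edgeR adjusted p = 0.0843, 1.8% of genes called). Neither passed, and both use the same CAST/EiJ libraries. Without control male 3, at 0.49 and 0.46, both passed (edgeR adjusted p = 0.0286 and 0.00964). The difference from NZO/HlLtJ also passed without HFHS male 2, at 0.42 (0.0313), and without control female 2, at 0.34 (0.0484).

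Between the strains, CAST/EiJ less the mean of the other 2 gave log2 differences of 0.50 ± 0.05 for Nbr1, 0.87 ± 0.10 for Tmem106a, -0.38 ± 0.11 for Brca1 and 0.38 ± 0.03 for Rundc1. The genes were picked on this contrast, in which 57.5% of all genes were called. NZO/HlLtJ against C57BL/6J was not used to pick them. There, Tmem106a was lower in NZO/HlLtJ, at 1.92 ± 0.332 against 2.44 ± 0.447 CPM (SD, n = 12 each), a difference of -0.37 ± 0.12 (edgeR adjusted p = 0.0177). Of all genes tested 26.6% were called in this contrast, and 14.1% were called lower, so 1 of 4 members is no more than the share of all genes called. Nbr1 (0.00 ± 0.05), Brca1 (-0.20 ± 0.12) and Rundc1 (-0.07 ± 0.04) did not pass.

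Many other genes of the surrounding 500 kb on each side differed in CAST/EiJ. Of the 41 others tested, 24 were called higher and 4 lower in CAST/EiJ than in the mean of the other strains, with a median difference of 0.18 against 0.00 over all genes (29% of all genes were called higher and 28.5% lower). Rpl27, a ribosomal protein gene at chr11:101442298-101445529, was at 80.8 ± 17.1 CPM in CAST/EiJ against 11.9 and 11.6 CPM in C57BL/6J and NZO/HlLtJ, a difference of 2.78 ± 0.06. Hsd17b1, a steroid dehydrogenase gene, differed by 2.37 ± 0.23, Wnk4, a kinase gene of ion transport, by 1.43 ± 0.12 and Aoc2, an amine oxidase gene, by 0.90 ± 0.08. Mlx, Tubg1, Fam134c (a receptor of endoplasmic reticulum autophagy) and Mpp3 differed by 0.43, 0.42, 0.32 and 0.31. Stat3, a cytokine signalling factor, was lower by -0.32 ± 0.03. Rnd2 and Rdm1 both differed by 0.30. Since the gene levels come from reads placed on the reference of another strain, how far sequence differences of CAST/EiJ move these counts was not tested. None of the 41 was called for diet or sex within CAST/EiJ, beside 0.12% and 0.185% of all genes.

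**Figure D5:**
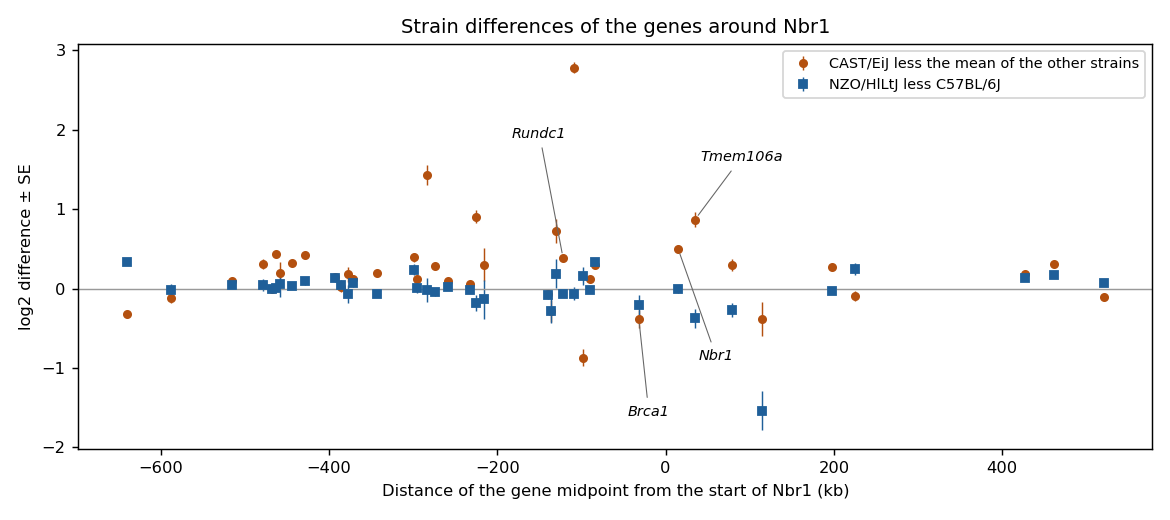
Log2 difference ± SE of CAST/EiJ less the mean of the other strains (circles) and of NZO/HlLtJ less C57BL/6J (squares), against the distance of each gene midpoint from the start of Nbr1, for genes with a mean of at least 1 CPM in CAST/EiJ. Nbr1, Tmem106a and Rundc1 lie above 0 and Brca1 below it among the circles, and Rpl27 stands highest at 2.78.

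Among genes that work with Nbr1 and Brca1, none was called for sex or diet averaged over the other factor in CAST/EiJ. Of 27 genes of selective autophagy tested, among them Sqstm1, the other main ubiquitin-binding receptor, and the LC3 and GABARAP genes, 0 were called in either contrast, but on control diet alone 5 were higher in females (4.55% of all genes called), and in females alone 2 were lower on HFHS (4.41% of all genes called). The medians of the list were 0.06 for sex and -0.04 for diet, against 0.02 and -0.01 over all genes. Against the other strains, where 57.5% of all genes were called, 10 of the 27 were higher in CAST/EiJ and 4 lower, a share near that of all genes. The 4 with the smallest p were Atg12 (0.43 ± 0.04), Map1lc3a (0.31 ± 0.05), Gabarapl1 (0.14 ± 0.02) and Pik3c3 (0.17 ± 0.03), all higher. Becn1, an autophagy gene that lies in the same chromosome 11 window, differed by 0.09 ± 0.02. Of 18 Brca1 partners and double-strand break repair genes, 6 were higher and 4 lower in CAST/EiJ than in the other strains, again near the 57.5% of all genes called. Uimc1 (0.55 ± 0.04) and Brca2 (0.46 ± 0.04) were among the higher, and Fam175a (-0.30 ± 0.06) among the lower. Of the family of Tmem106a, Tmem106c was lower in CAST/EiJ by -0.20 ± 0.04 and Tmem106b was not called. Of 13 cell cycle genes tested, 5 were called in that contrast, a smaller share than the 57.5% of all genes. Of these, 2 were higher in CAST/EiJ (Mcm5, 0.92 ± 0.08, and Mcm3, 0.48 ± 0.09) and 3 lower, among them Ccna2 (-0.57 ± 0.09) and Mcm4 (-0.26 ± 0.05), all genes of replication or division.

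Markers of cell types were summed in the same libraries, since Tmem106a is known from macrophages and Brca1 from dividing cells. The 17 microglia and macrophage markers matched 18 gene entries by symbol, and all 18 were summed. In CAST/EiJ their sum was 283 to 304 CPM in HFHS males and 267 to 295 CPM in control males. It was 291 to 317 CPM in HFHS females and 316 to 429 CPM in control females. Of the 4 libraries high in Nbr1, control male 3 was at 267 CPM, the lowest of the 12, and HFHS males 1 to 3 were at 304, 283 and 300 CPM. None of the 17 markers was called for sex or diet in CAST/EiJ. On control diet alone, 6 of the 17 and 4 of 8 oligodendrocyte markers were higher in females, beside 4.55% of all genes called. Astrocyte markers summed to 4083 to 4176 CPM in HFHS males and 4065 to 4352 CPM in control males, and hypothalamic neuron markers to 941 to 1387 and 1026 to 1145 CPM. Endothelial markers were at 177 to 184 CPM in HFHS males, below control males at 202 to 222 CPM and HFHS females at 205 to 227 CPM, with 0 of 8 called. Control females ran from 102 to 220 CPM, and control female 1 was the lowest of the 12. Red cell transcripts ran from 248.9 to 335 CPM in HFHS males and from 506 to 887 CPM in control males, and 4 of their 6 genes were lower on HFHS in CAST/EiJ, beside 0.12% of all genes called. The part of these markers in the results was not tested. Control female 1 of CAST/EiJ stood apart, with pituitary transcripts at 2409 CPM against 21.5 to 271 CPM in the other 11 libraries, and without it the sex difference of Nbr1 was -0.56 (edgeR adjusted p = 0.000162). It was also the highest of the 12 in oligodendrocyte markers, at 5900 CPM, and in hypothalamic neuron markers, at 2222 CPM. The same holds for microglia and macrophage markers, at 429 CPM, and astrocyte markers, at 5091 CPM. This library is 1 of the 3 control females behind the calls on control diet alone and in females alone, and its part in the list and marker calls was not tested. In bulk tissue, fewer cells of a type and less RNA per cell cannot be told apart. Library totals ran from 23.9 to 47.3 M counts (M, 1000000) with a median of 34.6 M, and those of CAST/EiJ from 27.5 to 44.3 M. The 4 libraries with high Nbr1 had 27.5, 28.7, 41.0 and 44.3 M, and the part of library size was not tested.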

How the data were processed

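Polyadenylated RNA from 100 ng of total RNA was sequenced as paired reads of 100 bases, per the labels' protocols. The authors deposited a table of expected counts, estimated read counts per gene, per the file headers. The deposited second table holds variance-stabilized values on a log2 scale, made with DESeq2 on GRCm38, per the submitters' processing notes. Strand use, annotation release, aligner and counter are not given in the sources here, so reads of overlapping genes cannot be told apart. Of the deposited expected counts 21.0% were not whole (tolerance 0.001). The design allowed for plain counts, so they were rounded, which moved totals by at most 0.000186%.

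The 4 members, the gene lists and the tests were chosen with earlier results of these data known. Levels are CPM from deposited totals, and log2 CPM uses a prior count of 2 with TMM. The edgeR quasi-likelihood test was fitted on 12 group means (24 residual degrees of freedom, 20053 of 24265 genes after filterByExpr), and genes were called at adjusted p under 0.05 (Benjamini-Hochberg over all tested genes). The rule for named genes gave the 4 members in full, genes of the window by name only if next to a member or among the 10 with the smallest strain p, the 10 genes most like Nbr1 or Tmem106a, and up to 4 called genes of a list. Sqstm1, Becn1 and Tmem106b are named outside that rule. Alternatives were limma on the deposited values, DESeq2, size factors by median ratio, no filter, a strict filter (1 CPM in 18 libraries), an additive term, the libraries compared alone, a prior count of 0.5, a window of 250 kb, and each library left out in turn. Gene models came from GENCODE M21 and promoter windows from RefSeq. The test was tried on simulated data. Some list members are not reported here. The tools were edgeR 4.0.16, DESeq2 1.42.0 and limma 3.58.1 in R 4.3.3, and pandas 2.3.3 in Python 3.11.15. Splits by sex or diet within CAST/EiJ, their differences, the strain difference of the sex effect and the 2-gap rule were added after seeing the data. The common biological coefficient of variation was 12.1%.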

Additional observations from a re-analysis of the deposited data

How the results depend on the processing

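The sex difference of Nbr1 in CAST/EiJ was called in 43 of 45 alternatives, and the lower Tmem106a of NZO/HlLtJ in all 43 run. With only the CAST/EiJ libraries in the fit, the sex difference was -0.54 for Nbr1 (edgeR adjusted p = 0.403) and -0.80 for Tmem106a (0.340), and 0 members were called. On control diet alone it was -0.15 for Nbr1 and -0.41 for Tmem106a, neither called. DESeq2 called Nbr1 for diet in CAST/EiJ at 0.33, so 1 member there and 1 for the diet change of CAST/EiJ less NZO/HlLtJ, and it gave no adjusted p for Tmem106a and Brca1 for diet or sex in CAST/EiJ. For males alone the diet difference of Nbr1 was 0.71, called. With 1 library left out in turn, the Nbr1 diet difference ran from 0.29 to 0.45, the Tmem106a sex difference from -0.92 to -0.68 and that of Brca1 from -0.86 to -0.58, called without control female 2 (edgeR adjusted p = 0.0150). Members called then ran from 0 to 1 for diet in CAST/EiJ and for its difference from C57BL/6J or NZO/HlLtJ, from 1 to 3 for sex in CAST/EiJ and from 1 to 2 for NZO/HlLtJ against C57BL/6J, where Rundc1 was added without NZO/HlLtJ control female 3. The cause was not tested.

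Over all genes, 24 were called for diet in CAST/EiJ and 37 for sex, against 420 and 512 with DESeq2, 6 and 10 with the CAST/EiJ libraries alone, and 20 and 23 with limma. Of 1363 alternatives of results that were not called, 51 had the other sign. On the deposited log2 values the CAST/EiJ difference was 0.26 for Tmem106a, 0.29 for Rundc1 and -0.08 for Brca1, and the sex difference in CAST/EiJ was -0.26 for Tmem106a, still called, and -0.15 for Brca1. The cause was not tested. Within 250 kb, 17 of 23 neighbouring genes tested were called between CAST/EiJ and the other strains, in place of 28 of 41 within 500 kb. Of all genes tested, 57.5% were called there. No paired analysis was possible because the labels give the libraries no shared replicate numbers. Low counts limit Brca1 and Tmem106a most, and 3 libraries a group limit each split by diet and sex.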

Other observations

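Between NZO/HlLtJ and C57BL/6J, 7 of the 41 other genes tested in the window were called higher and 3 lower in NZO/HlLtJ, near the 26.6% of all genes called. Rnd2, which encodes a small GTPase, was at 109 ± 5.10 CPM in NZO/HlLtJ and 84.4 ± 7.002 CPM in C57BL/6J (SD, n = 12 each), a log2 difference of 0.34 ± 0.04 (edgeR adjusted p = 4.04e-07). Rdm1, next to Tmem106a, was lower in NZO/HlLtJ, at 4.47 ± 0.574 against 5.27 ± 0.531 CPM, a difference of -0.27 ± 0.08 (edgeR adjusted p = 0.0137). Stat3, a transcription factor of cytokine and leptin signalling, differed by 0.34 ± 0.03, and Arl4d, a small GTPase gene, by -1.54 ± 0.25. Stat3 and Arl4d were picked after their values were seen.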
